A study of Homo sapiens with 6 samples.

Results

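A set of 6 genes of cellular acid handling was followed in a knockout of ETS-family transcription factors in breast cancer cells: the carbonic anhydrases CA9, CA12, CA2 and CA13, the bicarbonate transporter SLC4A7, and BSG, the partner protein of lactate transporters. They are 6 of the 61228 gene rows of the count table, taken by symbol, and were chosen by measured values of this same comparison. Their differences between the groups are therefore given as a description, and the calls and intervals given for them support nothing beyond it. The knockout (KO) group held 3 libraries of MDA-MB-231 cells nucleofected with the Cas9 nuclease and guide RNAs against ETV1, ETV4 and ETV5, and the control group held 3 libraries of MDA-MB-231 cells nucleofected with Cas9 and control guides. MDA-MB-231 is an established human breast cancer line of the triple-negative, mesenchymal type. All 6 cultures were grown in gels of collagen I, the chief fibre-forming protein of connective tissue, at a collagen concentration that the labels do not assign to individual samples. The treatment label of the KO cells names all 3 targeted genes while their titles name ETV4 alone, and their library names carry a tag, c39, that the labels do not explain, so whether the KO cells are a single clone is not given. Nothing in the labels says that replicates are separate cultures, so the p-values below measure only how far these libraries vary, which may be technical variation alone.

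Fast-growing cells produce CO2 and lactic acid and must move both out to keep their interior from turning acid. Carbonic anhydrases speed the reversible hydration of CO2 to bicarbonate and a proton. CA9 and CA12 span the plasma membrane with the catalytic domain outside the cell, CA2 and CA13 work in the cytosol, SLC4A7 (NBCn1) carries sodium and bicarbonate into the cell, and BSG (basigin, CD147) escorts the proton-coupled lactate transporters MCT1 and MCT4 to the cell surface. CA9 is a textbook target of hypoxia-inducible factors (HIF), the transcription factors that accumulate when oxygen is low, and is widely used as a tissue marker of hypoxia in tumours.

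Libraries held between 18042601 and 23232770 counts assigned to genes. Levels are given as CPM, counts scaled to the size of the library with TMM factors. At that depth a gene with 0 counts may have had up to 3, or between 0.128 and 0.165 CPM, a limit that covers counting error only. Of the targeted genes, ETV1 had 135, 137 and 155 CPM in KO libraries, against 218, 213 and 238 CPM in control libraries (log2 fold change -0.65, edgeR adjusted p = 0.00125). ETV4 had 65.6, 61.5 and 64.0 CPM in KO libraries, against 95.3, 94.9 and 91.4 CPM in control libraries (log2 fold change -0.56, edgeR adjusted p = 6.12e-04). ETV5 had 114, 113 and 112 CPM in KO libraries, against 117, 108 and 112 CPM in control libraries, and did not pass (edgeR adjusted p = 0.932). Transcripts of ETV1 and ETV4 were thus lower but far from absent, and those of ETV5 overlapped between the groups. RNA counts per gene do not show whether working protein is made, so these levels do not measure how complete the knockout was. Mesenchymal markers of the line (VIM, CD44, AXL, CAV1, EGFR and FOSL1) summed to between 7253 and 8691 CPM in KO libraries and between 8098 and 10097 CPM in control libraries, with 0 of 6 past the edgeR test (at an unadjusted p under 0.05, 3 of 6). With the replicate number as a block, VIM and AXL passed as lower and CD44 and CAV1 as higher. In that fit, also used for the markers below, 16.7% of all tested genes passed as lower and 17.2% as higher. The luminal list summed to between 86.9 and 94.7 CPM in KO libraries and between 86.8 and 98.3 CPM in control libraries, with ESR1, PGR and CDH1 at or near 0 in all 6 libraries. Of the detected ones, GATA3 averaged 12.1 CPM in KO and 9.42 CPM in control, ERBB2 55.7 CPM in KO and 61.2 CPM in control, and EPCAM 21.1 CPM in KO and 19.7 CPM in control. FOXA1 averaged 2.38 CPM in KO and 1.57 CPM in control (log2 fold change 0.61, edgeR adjusted p = 0.195). In the fit without the replicate block these 4 markers did not pass. With the block GATA3 was higher and ERBB2 lower (edgeR adjusted p = 0.00722 and 0.0382), and FOXA1 did not pass (edgeR adjusted p = 0.0562). The fibroblast list summed to between 11.9 and 13.9 CPM in KO libraries and between 13.2 and 13.5 CPM in control libraries, with DCN and FAP at no more than 1 count in any library. COL1A1 averaged 10.1 CPM in KO and 9.46 CPM in control, and PDGFRB 2.38 CPM in KO and 3.57 CPM in control; PDGFRB did not pass, and was lower with the replicate block (edgeR adjusted p = 0.0192). The immune list summed to between 1.30 and 1.77 CPM in KO libraries and between 1.04 and 1.99 CPM in control libraries. The endothelial list summed to between 5.89 and 8.46 CPM in KO libraries and between 9.73 and 11.1 CPM in control libraries: PECAM1 was lower (edgeR adjusted p = 0.025), 1 of 2 tested of 5 listed, while CDH5 was at 0 in every library. KDR, the other tested one, averaged 3.27 CPM in KO and 3.68 CPM in control and did not pass (edgeR adjusted p = 0.598). The part of these markers in the results below was not tested.

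Of the membrane-bound, outward-facing enzymes, CA9 was the gene with the widest difference among the 6. CA9 had 3.48, 3.58 and 3.14 CPM in KO libraries, against 44.9, 39.9 and 38.8 CPM in control libraries, from 65, 69 and 57 counts in KO libraries and 950, 740 and 912 counts in control libraries. Every KO library lay far below every control library, and the spread within each group was small beside the gap. The means were 3.40 ± 0.233 CPM in KO and 41.2 ± 3.27 CPM in control (SD, n = 3 each), a level 12.1-fold lower in KO. The log2 fold change was -3.59 (SE 0.105), the fifth lowest value of the 14704 genes tested. CA9 (ENSG00000107159.12) lies on chromosome 9 between 35673856 and 35681159 on the forward strand of GRCh38. The gene ARHGEF39 overlaps it on the opposite strand; with 1877 counts over all 6 libraries and a log2 fold change of 0.18, it did not pass the test. The strand setting of the counting is not known here, so reads from the overlap cannot be assigned with certainty.

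CA12, the other outward-facing enzyme, differed in the same direction by less. CA12 had 19.7, 20.5 and 20.03 CPM in KO libraries, against 44.8, 45.9 and 42.6 CPM in control libraries. The KO libraries were nearly identical to one another and all lay below the control libraries. The means were 20.05 ± 0.401 CPM in KO and 44.4 ± 1.71 CPM in control (SD, n = 3 each), a level 2.21-fold lower in KO (log2 fold change -1.15, SE 0.068). The coefficient of variation of CA12 was 2.00% in KO and 3.84% in control, where the median tested gene varied by 9.30% in KO and 8.31% in control. Taken from 3 libraries, and set against genes of other depths, such a value is uncertain, and nothing is read from it. CA12 (ENSG00000074410.13) spans chromosome 15 from 63321378 to 63382161 on the reverse strand of GRCh38. In bulk RNA, fewer cells carrying a transcript and less of it per cell cannot be told apart.

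The cytosolic enzymes CA13 and CA2 were not lower in KO libraries. CA13 had 15.05, 13.4 and 15.4 CPM in KO libraries, against 12.1, 12.5 and 12.8 CPM in control libraries. All KO values lay above all control values, by a narrow margin between the lowest KO and the highest control library. The log2 fold change was 0.23 (SE 0.096), from means of 14.6 ± 1.03 CPM in KO and 12.5 ± 0.394 CPM in control (SD, n = 3 each). CA2, the fast and widely expressed cytosolic isozyme, was scarce: it had 1.87, 2.18 and 1.71 CPM in KO libraries, against 1.61, 1.45 and 1.23 CPM in control libraries, from between 27 and 42 counts a library. The groups again did not overlap, with KO above, at a log2 fold change of 0.43 (SE 0.230). CA2 and CA13 both lie on chromosome 8, at 85463852 to 85481493 and 85220587 to 85284073 on the forward strand of GRCh38. Their loci are separate, and the standard errors of their log2 fold changes overlap. CA2 shares its locus with the antisense gene CA3-AS1, which had 6 counts over all 6 libraries.

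SLC4A7, the bicarbonate importer, was close in level in both groups. SLC4A7 had 95.2, 95.1 and 107 CPM in KO libraries, against 92.4, 97.2 and 102 CPM in control libraries. The ranges overlapped, and in each group the third replicate was the highest. The log2 fold change was 0.03 (SE 0.070), with a 95% interval from -0.13 to 0.19, and from -0.06 to 0.12 with the replicate number as a block. SLC4A7 (ENSG00000033867.16) lies on chromosome 3 between 27372721 and 27484420 on the reverse strand of GRCh38.

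BSG, the most abundant of the 6 per length of transcript, was also close in both groups. BSG had 858, 854 and 1032 CPM in KO libraries, against 873, 850 and 1007 CPM in control libraries. The groups overlapped, and the third replicate stood above the others in both, at 1.20 times their mean in KO and 1.17 times their mean in control. The log2 fold change was 0.01 (SE 0.097), with a 95% interval from -0.21 to 0.23; with the replicate number as a block the interval narrowed to between -0.06 and 0.07. BSG (ENSG00000172270.19) lies on chromosome 19 between 571277 and 583493 on the forward strand of GRCh38.

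**Figure D1:**
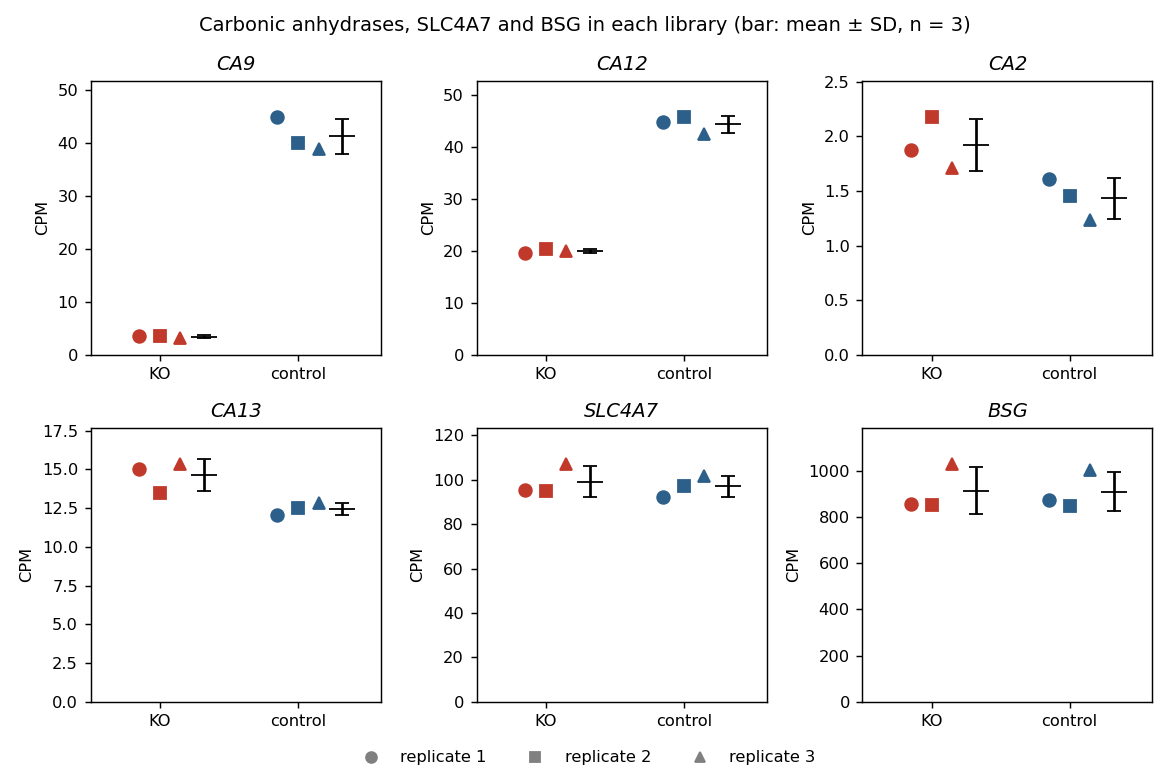
Each panel plots the level of 1 gene in CPM (axis from 0), with KO libraries in red at the left, control libraries in blue at the right, a symbol for each replicate number, and the mean ± SD (n = 3) as a bar. CA9 and CA12 sit lower in every KO library, at means of 3.40 and 20.05 CPM against 41.2 and 44.4 CPM in control, while the SLC4A7 and BSG values overlap.

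Counted against the whole table, 2 of the 6 (CA9 and CA12) passed edgeR's quasi-likelihood test as lower, where 6.42% of all 14704 tested genes did, and 0 of 6 passed as higher, where 3.28% did, 9.7% passing in either direction (at an unadjusted p under 0.05, CA13 was also past). The KO libraries lay entirely below the control libraries for 2 of the 6, against 16.8% of tested genes, and entirely above for 2 of the 6 (CA2 and CA13), against 14.9%. Since the 6 were picked with this comparison known, nothing is read from these shares. The calls of all 6 were the same under each of the 14 alternative settings or library sets tried, in which the log2 fold change of CA9 ran from -3.64 to -3.52 and that of CA12 from -1.18 to -1.12. The sign for SLC4A7 and BSG, near 0, changed in 2 and in 4 of them. Taken by replicate number, the log2 differences of KO minus control were -3.65, -3.44 and -3.59 for CA9 and -1.18, -1.16 and -1.08 for CA12. For CA2 they were 0.21, 0.55 and 0.44, and for CA13 0.32, 0.10 and 0.26. The groups of CA9, CA12, CA2 and CA13 did not overlap, so any pairing gives differences of the same sign, and these signs add nothing. SLC4A7 gave 0.04, -0.03 and 0.07 and BSG -0.02, 0.01 and 0.03, which lie on both sides of 0.

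**Figure D2:**
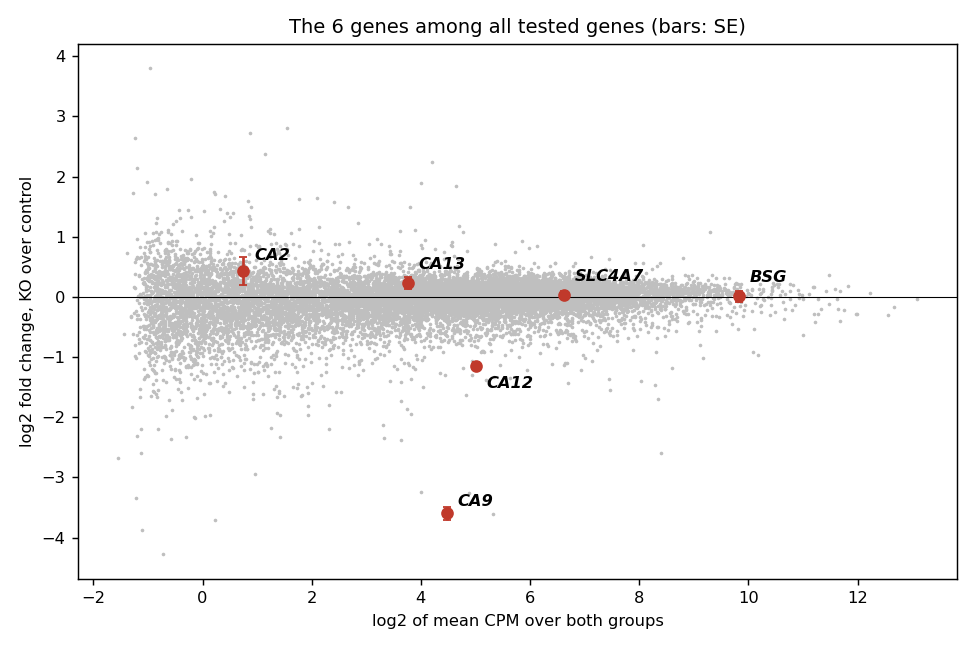
Each grey point is 1 of the 14704 tested genes, by log2 of its mean CPM over both groups (x) and its log2 fold change, KO over control (y); the 6 genes are in red with SE bars. CA9, at -3.59, lies at the lower edge of the plot among genes of middle level, CA12 at -1.15, and the other 4 between 0.01 and 0.43.

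The stretches before the start sites of CA9 and CA12 are shown because both genes were lower in KO and because CA9 is known to be driven through a hypoxia response element next to its start. The sequences are RefSeq promoters of GRCh38.p14, the 250 bases before the annotated start read in the direction of the gene, CA9 from chr9:35673678-35673927 (forward strand) and CA12 from chr15:63381847-63382096 (reverse strand). Capitals mark the core of the hypoxia response element, ACGTG or GCGTG, which on the opposite strand reads CACGT or CACGC. Start sites differ between annotations: the outermost start in GENCODE 29 lies inside the printed stretch for CA9 and upstream of it for CA12.
CA9: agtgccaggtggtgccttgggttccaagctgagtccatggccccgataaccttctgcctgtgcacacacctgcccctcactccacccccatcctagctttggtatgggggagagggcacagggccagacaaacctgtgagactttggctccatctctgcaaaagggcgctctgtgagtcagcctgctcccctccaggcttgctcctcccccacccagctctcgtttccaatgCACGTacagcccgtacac
CA12: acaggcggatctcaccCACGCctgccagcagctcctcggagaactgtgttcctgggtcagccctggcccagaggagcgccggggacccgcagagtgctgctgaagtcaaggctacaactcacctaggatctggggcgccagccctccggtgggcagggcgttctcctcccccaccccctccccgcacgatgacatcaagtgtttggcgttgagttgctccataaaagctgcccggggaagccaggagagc

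Both strands of the RefSeq windows from 250 bases before to 50 bases after the start were searched for ACGTG and GCGTG and for GGAAG and CCGGAAG, a short and a longer core of the sites bound by ETS factors, the family of ETV1, ETV4 and ETV5. The CA9 window held 1 hypoxia core, on the opposite strand at bases -18 to -14 from the start, and had no GGAAG. Shorter forms of the ETS core were not searched, and the printed CA9 stretch does hold GGAA on the opposite strand (read as TTCC). The CA12 window held 2 hypoxia cores, on the opposite strand at -234 to -230 and, past the printed stretch, at 40 to 44, and 1 GGAAG on the strand of the gene at -15 to -11. These cores are short, and either hypoxia core was present in 48.4% of the 27305 promoters and GGAAG in 71.9% of them. Among the 10757 promoters of tested genes the shares were 63.2% and 76.3%. The SLC4A7 window held 3 hypoxia cores and 1 GGAAG. Whether such cores bear on the levels was not tested. The BSG window held no hypoxia core and 3 copies of GGAAG. The longer CCGGAAG, present in 10.7% of all promoters and 19.5% of those of tested genes, was found in none of these 4 windows. A GGAAG inside CCGGAAG counts for both, and a match or its absence describes the letters of the window and nothing about binding. CA2 and CA13 were not part of the search.

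**Figure D3:**
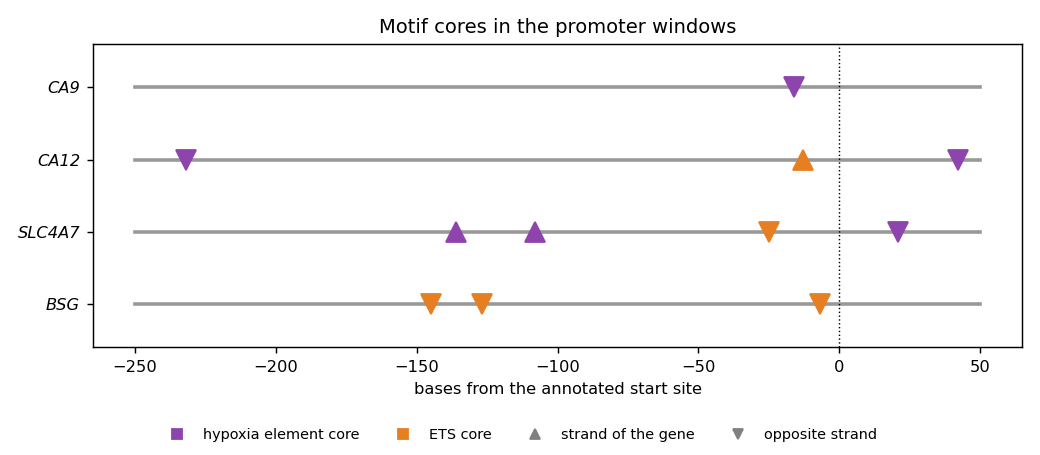
Horizontal lines are the promoter windows of 4 genes, with the distance in bases from the annotated start on the x axis. Purple triangles mark hypoxia element cores and orange triangles the ETS core GGAAG alone, pointing up on the strand of the gene and down on the opposite strand. CA9 has a single hypoxia core, at -18 to -14, and CA12 has its GGAAG at -15 to -11.

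Compared per length of exon sequence, the makeup of carbonic anhydrase transcripts was different in the groups. The summed level of the family ranged from 9.94 to 10.2 CPM per kb in KO libraries and from 34.5 to 38.3 CPM per kb in control libraries. CA9 made up between 18.8% and 21.6% of that sum in KO libraries, against between 67.3% and 70.1% in control libraries. CA12 took from 26.3% to 28.1% in KO libraries and from 16.0% to 17.8% in control libraries, so that its share was higher although its level was lower. CA13 took from 24.5% to 27.8% in KO libraries, against from 5.69% to 6.74% in control libraries. The share of CA2 was between 8.03% and 10.3% in KO libraries and between 1.68% and 1.97% in control libraries. CA9 was present at between 0.686 and 0.776 times the per-length level of CA12 in KO libraries, against between 3.80 and 4.39 times in control libraries. Among the 4 enzymes, the order of the per-length levels was CA12 (2.74 ± 0.055 CPM per kb), CA13 (2.64 ± 0.185), CA9 (2.04 ± 0.140) and CA2 (0.905 ± 0.113) in KO (SD, n = 3), with CA12 and CA13 within their spread. In control it was CA9 (24.7 ± 1.96 CPM per kb), CA12 (6.07 ± 0.233), CA13 (2.25 ± 0.071) and CA2 (0.674 ± 0.089) (SD, n = 3). Not divided by length, the control means were 41.2 CPM for CA9 and 44.4 CPM for CA12. The order in control, the ratios and the shares thus depend on the exon lengths used, 1670 bases for CA9 and 7313 for CA12. Shares of a sum depend on one another, and these rest on the values that chose the genes.

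**Figure D4:**
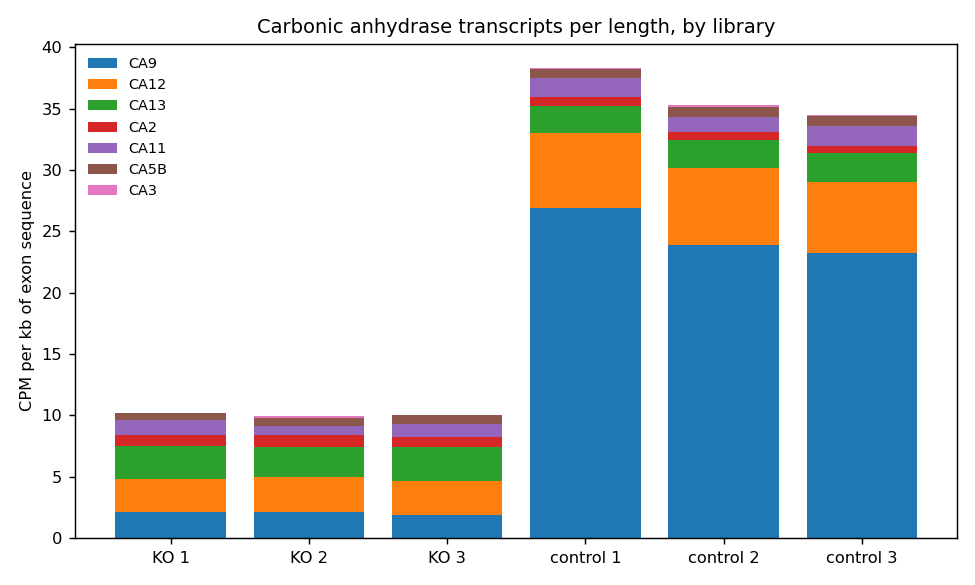
Stacked bars give the level of each detected carbonic anhydrase in CPM per kb of exon sequence, by library, with KO libraries at the left and control libraries at the right. CA9 (blue) takes up to 21.6% of the bar in KO libraries and at least 67.3% in control libraries, and the whole bar is between 9.94 and 10.2 in KO libraries against between 34.5 and 38.3 in control libraries.

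The rest of the carbonic anhydrase family was sparse in these cells. Of the 15 family genes examined, 7 (CA1, CA4, CA5A, CA7, CA8, CA10 and CA14) had 0 counts in all 6 libraries, each allowing up to 0.165 CPM in the shallowest. CA6 had at most 1 count in any library, and CA3, the muscle isozyme, reached 0.363 CPM at most; neither entered the test. CA11, a family member without catalytic activity, had 2.52, 1.51 and 2.20 CPM in KO libraries, against 3.17, 2.59 and 3.36 CPM in control libraries. Its groups did not overlap, but it did not pass (edgeR log2 fold change -0.55, SE 0.232; adjusted p = 0.176). With the replicate number as a block it passed as lower (edgeR adjusted p = 0.0431). CA5B, a mitochondrial isozyme, had 4.82, 5.56 and 6.17 CPM in KO libraries, against 6.57, 6.84 and 7.44 CPM in control libraries (log2 fold change -0.34, SE 0.137, edgeR adjusted p = 0.168). CA5B did not pass either, and its value is uncertain because the table also lists the pseudogene CA5BP1.

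Most genes of the wider machinery of acid handling, taken as whole families, did not pass the test. Of 94 acid-base genes besides the 6, 21 had no count in any library and 56 could be tested. Among those 56, 7 were lower in KO (12.5%, against 6.42% of all tested genes) and 2 were higher (3.57%, against 3.28%), while 47 did not pass edgeR's test. Their median log2 fold change was -0.01, where that of all tested genes was 0.00. With the replicate number as a block, 11 were lower and 9 higher, in a fit in which 16.7% of all tested genes were lower and 17.2% higher. Single libraries also moved these counts: the lower count was 4 without KO replicate 1 or KO replicate 2 and 3 without control replicate 2. The higher count was 0 without KO replicate 1, KO replicate 2, control replicate 1 or control replicate 2, and 1 without control replicate 3. The lists were written with earlier results of these data known.

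The genes of lactate production and export that BSG serves were divided. SLC16A3, which encodes the lactate exporter MCT4, had 450, 443 and 418 CPM in KO libraries, against 649, 648 and 653 CPM in control libraries. It fell by 0.57 on the log2 scale (SE 0.059, edgeR adjusted p = 6.54e-04), with every KO library below every control library. LDHA, the lactate dehydrogenase subunit that favours lactate formation, had 1610, 1657 and 1559 CPM in KO libraries, against 2573, 2471 and 2407 CPM in control libraries. It fell by 0.63 on the log2 scale (SE 0.063, edgeR adjusted p = 5.64e-04). Both passed in all 14 alternatives. The other 4 tested genes of the list besides BSG did not pass, among them EMB (embigin), a relative of BSG that escorts the transporter MCT2 in rodents, and NPTN (neuroplastin). EMB had 53.0, 54.5 and 52.6 CPM in KO libraries, against 47.9, 46.4 and 48.4 CPM in control libraries (log2 fold change 0.17, edgeR adjusted p = 0.122). With the replicate block EMB and SLC16A7 (MCT2) passed as higher (edgeR adjusted p = 0.0146 and 0.0299). EMB also passed as higher without both replicate-3 libraries (edgeR adjusted p = 0.0304). NPTN had a log2 fold change of -0.06. SLC16A1, which encodes MCT1, was barely detected, at between 0.054 and 0.165 CPM in KO libraries and between 0.142 and 0.510 CPM in control libraries. BSG itself stood at 241 CPM per kb in KO and 240 CPM per kb in control, while SLC16A3 stood at 48.6 CPM per kb in KO and 72.3 CPM per kb in control.

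Among bicarbonate transporters and their regulators AHCYL1 and AHCYL2, 2 of the 10 tested besides SLC4A7 were lower (20%, against 6.42% of all tested genes). Those higher numbered 0 (against 3.28% of all tested genes), and the median log2 fold change was -0.05. SLC4A3, the chloride-bicarbonate exchanger AE3, had 2.46, 2.23 and 2.04 CPM in KO libraries, against 3.88, 4.74 and 4.55 CPM in control libraries (log2 fold change -0.96, SE 0.172, edgeR adjusted p = 0.00989). SLC4A8, a sodium-driven chloride-bicarbonate exchanger, had 2.30, 3.58 and 3.58 CPM in KO libraries, against 5.91, 5.66 and 5.02 CPM in control libraries (log2 fold change -0.81, SE 0.193, edgeR adjusted p = 0.0332). Both are scarce, and neither call held without every library: SLC4A3 did not pass without control replicate 2 (edgeR adjusted p = 0.058), and SLC4A8 did not pass without KO replicate 1, KO replicate 2, control replicate 1 or control replicate 2 (edgeR adjusted p = 0.09, 0.0659, 0.125 and 0.116). With the replicate block SLC26A6, another anion exchanger, was also lower (edgeR adjusted p = 1.65e-05). SLC26A6 passed as lower too with no filter and without both replicate-3 libraries (edgeR adjusted p = 0.00417 and 0.00325). SLC4A2, the housekeeping exchanger AE2, had 196, 180 and 197 CPM in KO libraries, against 187, 190 and 190 CPM in control libraries, and its 95% interval ran from -0.12 to 0.15 on the log2 scale. Per length, SLC4A2 stood at 25.2 CPM per kb in KO and 24.9 CPM per kb in control, above SLC4A7 at 10.3 CPM per kb in KO and 10.1 CPM per kb in control.

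Of the sodium-proton exchangers and their regulators, 1 of 10 tested was lower (10%, against 6.42% of all tested genes) and 0 were higher (against 3.28%). Their median log2 fold change was -0.09. SLC9A7, an exchanger of the Golgi network, had 20.2, 18.8 and 22.3 CPM in KO libraries, against 25.9, 26.9 and 32.3 CPM in control libraries (log2 fold change -0.48, SE 0.107, edgeR adjusted p = 0.0256). This call was lost without KO replicate 1, KO replicate 2 or control replicate 2 (edgeR adjusted p = 0.0998, 0.112 and 0.07). With the replicate block the regulators NHERF2 and CHP1 were also past the threshold as lower (edgeR adjusted p = 0.0158 and 0.0202). They passed as lower too without both replicate-3 libraries (edgeR adjusted p = 0.0417 and 0.0463).

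Of 23 tested genes of proton pumps and channels, 1 was lower (4.35%, against 6.42% of all tested genes) and 2 were higher (8.7%, against 3.28%). The median log2 fold change of the list was 0.13. Besides HVCN1, a voltage-gated proton channel, its tested genes encode the vacuolar proton pump, which acidifies lysosomes and in some tumour cells the outside. ATP6V0A1, a membrane-sector subunit, had 63.9, 58.3 and 68.9 CPM in KO libraries, against 74.7, 76.1 and 83.8 CPM in control libraries (log2 fold change -0.30, SE 0.079, edgeR adjusted p = 0.0485). Its isoform ATP6V0A2 had 73.8, 69.9 and 71.7 CPM in KO libraries, against 61.5, 60.2 and 62.0 CPM in control libraries (log2 fold change 0.23, SE 0.057, edgeR adjusted p = 0.0375). ATP6V0B, a subunit of the proteolipid ring, had 130, 127 and 139 CPM in KO libraries, against 104, 101 and 116 CPM in control libraries (log2 fold change 0.30, SE 0.070, edgeR adjusted p = 0.0294). Values of the 3 genes did not overlap between the groups, as for 16.8% (KO below) and 14.9% (KO above) of all tested genes. Each of the 3 lost its call when libraries were left out. For ATP6V0A1 this held for KO replicates 1 and 2 (edgeR adjusted p = 0.14 and 0.172) and for control replicates 1, 2 and 3 (edgeR adjusted p = 0.0993, 0.12 and 0.106). For ATP6V0A2 it held for KO replicates 1 and 2 (edgeR adjusted p = 0.127 and 0.0838) and for control replicates 1, 2 and 3 (edgeR adjusted p = 0.134, 0.158 and 0.0608). For ATP6V0B it held for KO replicates 1 and 2 (edgeR adjusted p = 0.0872 and 0.0719) and for control replicates 1 and 2 (edgeR adjusted p = 0.128 and 0.14). With the replicate block 1 pump gene was lower and 7 were higher, where 16.7% of all tested genes were lower and 17.2% higher in that fit, the added ones being ATP6V1D, ATP6V1F, ATP6V0D1, ATP6V0E1 and ATP6AP2.

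Of the proton-sensing receptors and channels, 1 of 5 tested was lower (20%, against 6.42% of all tested genes) and 0 were higher (against 3.28%). ASIC1, an acid-gated sodium channel, had 3.54, 3.69 and 3.19 CPM in KO libraries, against 6.33, 7.06 and 6.89 CPM in control libraries. It fell by 0.96 on the log2 scale (SE 0.136, edgeR adjusted p = 0.00335) and passed in all 14 alternatives.

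**Figure D5:**
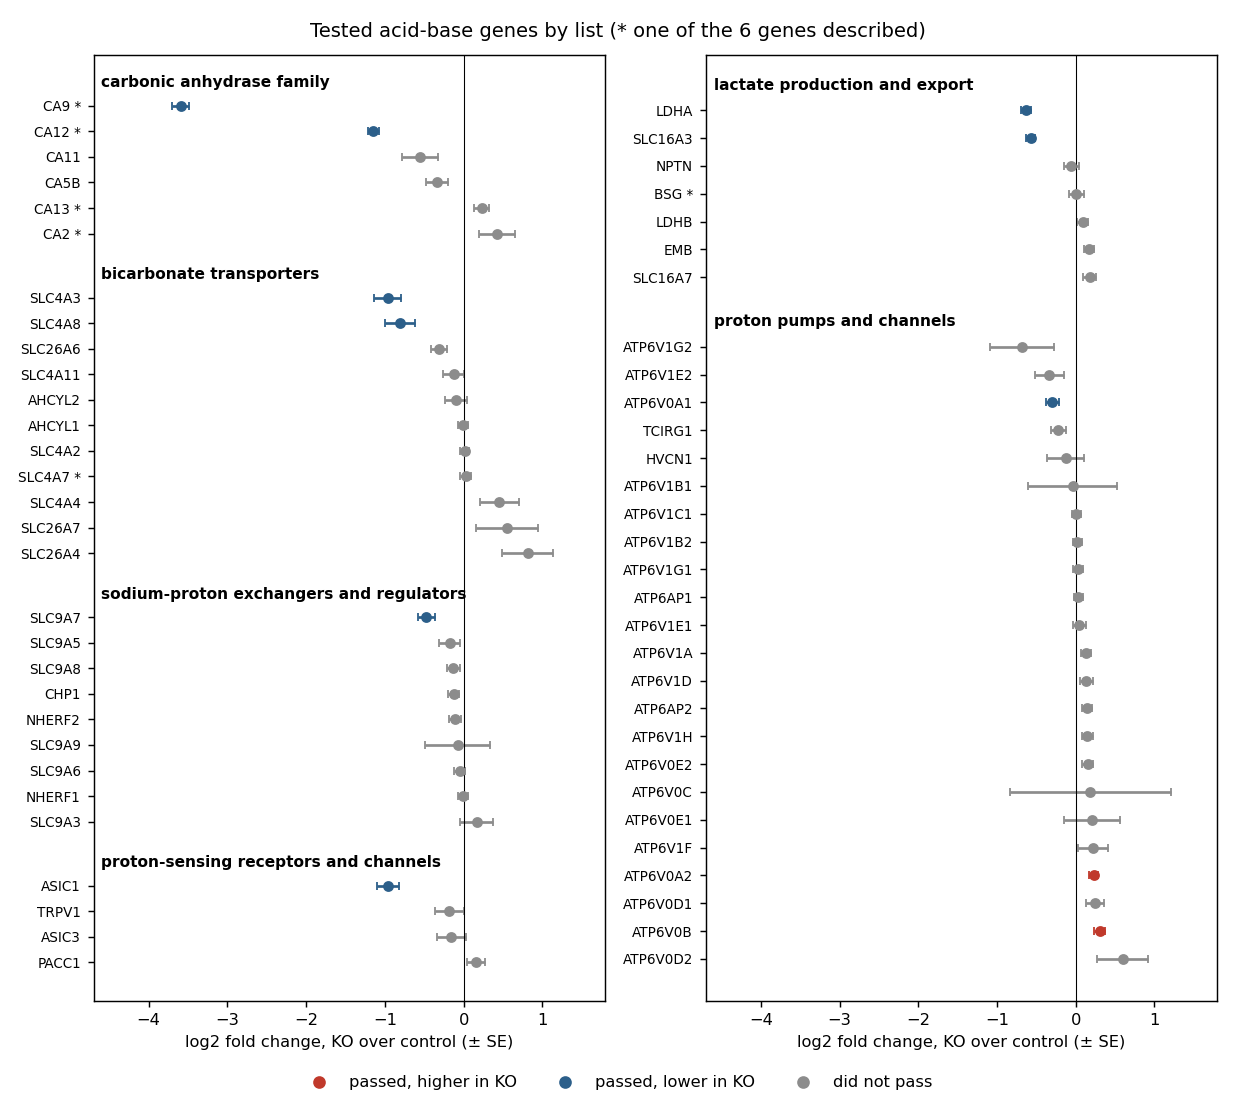
Points are the log2 fold changes (KO over control, with SE bars) of tested acid-base genes, grouped by list, with 2 tested genes not drawn; blue points passed as lower in KO, red as higher, and grey points did not pass. CA9 at -3.59 and CA12 at -1.15 lie furthest to the left of the genes that passed, and 47 of the 56 genes besides the 6 did not pass.

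HIF subunits, their hydroxylases and VHL were counted as a separate list, because CA9 is a HIF target. The EGLN hydroxylases among them mark HIF subunits for destruction when oxygen is present. Of the 9 genes of this list that were tested, 1 was lower (11.1%, against 6.42% of all tested genes) and 0 were higher (against 3.28%). EGLN3, the hydroxylase PHD3 and itself a known HIF target, had 1.07, 1.66 and 1.27 CPM in KO libraries, against 4.68, 3.66 and 2.85 CPM in control libraries. Every KO library was below every control library, and EGLN3 fell by 1.48 on the log2 scale (SE 0.261, edgeR adjusted p = 0.00956), past the threshold in all 14 alternatives. HIF1A, the oxygen-regulated subunit, had 431, 446 and 420 CPM in KO libraries, against 373, 385 and 351 CPM in control libraries. The groups did not overlap, with KO above, yet HIF1A did not pass (log2 fold change 0.23, SE 0.063, edgeR adjusted p = 0.0572). It passed as higher with RLE or library totals as the scaling (edgeR adjusted p = 0.04999 and 0.0373), with DESeq2 (adjusted p = 0.0139), without KO replicate 3 (edgeR adjusted p = 0.0298) and without both replicate-3 libraries (edgeR adjusted p = 2.93e-04). With the replicate block HIF1A passed as higher (edgeR adjusted p = 1.09e-07), as did EPAS1 (HIF-2alpha; edgeR adjusted p = 0.00291), while EGLN1 passed as lower (edgeR adjusted p = 1.42e-05). EGLN1 also passed as lower with DESeq2 (adjusted p = 0.0332), with no filter, without control replicate 3 and without both replicate-3 libraries (edgeR adjusted p = 0.00137, 0.0459 and 0.00184). HIF activity is set mainly by protein stability, which RNA counts do not measure.

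The genes whose profiles lay nearest to those of the 6 were found by Euclidean distance between log2 CPM values, centred on each gene's mean over the 6 libraries, among 13340 genes. With 6 libraries this likeness is governed by the difference between the groups, and it is a description with no test. Nearest to CA9 was CST1, a secreted cystatin, at a distance of 0.269, followed by its relative CST4 (0.581), CYP3A5 (0.804), NDRG1 (1.21) and PPFIA4 (1.23). CST1 had 6.06 ± 0.239 CPM in KO and 73.7 ± 5.97 CPM in control (SD, n = 3 each), and reads of the near-identical cystatin genes are uncertain. NDRG1, a gene induced by hypoxia and other stresses, had 95.6 ± 3.64 CPM in KO and 577 ± 23.2 CPM in control (SD, n = 3 each). Nearest to CA12 were P4HA1, a collagen prolyl hydroxylase (0.151), BNIP3L, a mitophagy receptor (0.167), and LOX, which cross-links collagen (0.181). Their means were 63.4, 91.3 and 37.0 CPM in KO and 136, 191 and 86.0 CPM in control. The profiles nearest to CA2 were those of SEC11C, KLF15 and POP5, and those nearest to CA13 were ORC6, RBM25 and MOK. SLC4A7 lay nearest to RNF220, TRIB2 and MFAP3, and BSG to YWHAG, ZNF205 and FIS1, at distances from 0.036 to 0.045.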

How the data were processed

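Raw counts of reads per gene were deposited by the authors for 6 libraries. Per the labels' protocols these were stranded libraries of poly(A) RNA from collagenase-released gel cultures, and the submitters' processing notes list STAR 2.7.9a, featureCounts, FastQC 0.11.9, R 4.1.1 and build hg38. Annotation, strand setting and multiple mapping were not given in the sources used here, which affects overlapping genes and near-identical copies.

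Genes were filtered with filterByExpr (14704 kept), scaled with TMM factors and tested on the deposited counts with edgeR 4.0.16 (glmQLFit with robust estimation, glmQLFTest, group as the single term, R 4.3.3), with Benjamini-Hochberg adjustment over all kept genes and a threshold of 0.05. DESeq2 1.42.0 and limma 3.58.1 (voom) were alternatives, beside other scalings, other filters, a replicate block and left-out libraries. CPM, fold changes and SE were computed here. Levels per kb used the union of GENCODE 29 exons (GRCh38), which need not be the annotation behind the counts.

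The 6 genes and the lists were chosen with earlier results of these data known. Markers with values were named after those were seen. Named besides the 6 are every carbonic anhydrase, up to 3 genes per direction and list with the smallest adjusted p, transport partners, the targeted genes, the highest gene of lists where none passed, and the genes with the nearest profiles. SLC26A6, SLC16A7, NHERF2, CHP1, the pump genes called with the block, SLC4A2, and the HIF genes without a call were named after their values were seen.

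The treatment label gave the groups, and the titles gave the replicate numbers. Over 10032 genes, deviations from the group means correlated between same-numbered libraries at 0.546, 0.450 and 0.828. By the rule of a correlation above 0.1, the numbers were taken as pairing in the replicate block and in the differences by replicate number. The main test used group alone and ignored the numbers. The pairing comes from the data, not the labels. KO 2 with control 1 (0.592) and KO 1 with control 2 (0.584) correlated as much, so that replicate 3 alone is matched by number. Between replicates of a group, chi-square per degree of freedom was at least 4.21, so none was taken for a repeat deposit of another. Some genes of the lists are counted but not reported here by name.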

Additional observations from a re-analysis of the deposited data

How the results depend on the processing

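The threshold was passed by 1427 genes, of which 33.8% were higher and 66.2% lower. With the replicate block 4983 passed (1426 of them shared; 50.6% higher and 49.4% lower), and leaving both replicate-3 libraries out 3754 passed (1413 shared; 46.1% higher and 53.9% lower). Leaving out 1 library at a time gave between 572 and 1741 genes; without KO replicate 3 the split was 44.6% higher and 55.4% lower. Acid-base genes besides the 6 called higher numbered 2; they were 9 with the replicate block, 6 without both replicate-3 libraries and from 0 to 3 with 1 library left out. Those called lower numbered 7; they were 11 with the replicate block, 11 without both replicate-3 libraries and from 3 to 7 with 1 library left out. The cause of these shifts was not tested. Scaling by RLE or library totals, both filters, DESeq2 and limma-voom kept all 3 counts within 1.5 times, though ATP6V0A1 did not pass with RLE (edgeR adjusted p = 0.0517) or library totals (edgeR adjusted p = 0.0626), and ATP6V0A2 did not pass with no filter (edgeR adjusted p = 0.067). Among the 6, the acid-base and HIF lists, the targeted genes and the nearest profiles, no direction of a called gene reversed. The other called genes were not followed for this. With the block no call among the 6 genes changed. CA2, with at most 42 counts a library, is the member whose depth limits it most: its 95% interval ran from -0.09 to 0.95 on the log2 scale.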

Other observations

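A difference between replicates that the labels do not describe touched the proton pump genes. ATP6V0C, the proteolipid of the pump's membrane ring, had 8.73, 8.77 and 44.4 CPM in KO libraries, against 6.85, 8.83 and 38.0 CPM in control libraries, so that the third replicate stood at 5.08 times the mean of the other replicates in KO and 4.85 times in control. ATP6V0E1 had 71.4, 78.3 and 132 CPM in KO libraries, against 65.3, 62.7 and 116 CPM in control libraries. Of the 62 acid-base genes tested, the 6 included, 2 had a replicate 3 above 1.5 times the mean of the others in both groups (3.23%), as did 385 of all 14704 tested genes (2.62%). CA9, CA12, CA2 and CA13 were not among them, at ratios of 0.888 in KO and 0.915 in control for CA9 and 0.999 in KO and 0.938 in control for CA12.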
